A study of Mus musculus with 12 samples.

Results

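The genes described here encode the proteins of the mitochondrial ribosome. They were taken as every gene whose symbol starts with Mrpl or Mrps followed by a number, a rule that itself uses no measured response. The rule was chosen with earlier results of these data known. The array carried 76 such genes on 132 probes, 50 named or placed in the large subunit and 26 in the small. A probe was used if its detection p was below 0.05 on at least 3 of 12 arrays, and the brightest such probe stood for its gene. This left 72 genes, 47 of the large and 25 of the small subunit, among 9747 genes tested.

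Liver RNA of 8-week-old male C57BL/6 mice had been measured on Illumina bead arrays, 12 arrays in 4 groups of 3. One group was the control, for which the labels record no injection, and no source used here says whether it received vehicle. The T3 group received L-T3 (liothyronine, the active thyroid hormone) for 3 days. The XCT790 group received XCT790, an inverse agonist of the nuclear receptor ESRRA, for 4 days. The group given both compounds received XCT790 for 4 days with L-T3 on the last 3, and all compounds were injected into the peritoneum daily. Arrays are numbered within a group, without a statement that different mice were used for them. The p-values therefore cover only array-to-array spread, possibly technical.

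The mitochondrial ribosome translates the few messenger RNAs of the mitochondrial genome, which encode core subunits of the respiratory chain and of ATP synthase. Its RNA is made from the mitochondrial genome, while its proteins are encoded in the nucleus, made in the cytosol and imported. Some of these proteins have counterparts in the bacterial ribosome and others are particular to mitochondria. Thyroid hormone is known for raising mitochondrial respiration in liver, and ESRRA for driving genes of mitochondrial energy metabolism, which is why both compounds bear on these genes.

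Arrays had summed intensities of 14568457 to 22343383, and 31.9% to 35.6% of probes were detected on an array. XCT790 array 3 stood apart before scaling, with the highest summed intensity of all arrays. Values without it are given beside the main results of the comparisons that use the XCT790 group, the interaction included. Thrsp and Dio1, textbook targets of thyroid hormone in liver, rose by 2.59 and 2.13 on the log2 scale with T3 (adjusted p = 2.28e-06 and 3.16e-06, limma). Thrsp also rose with XCT790 alone, by 1.23 (adjusted p = 0.00319, limma), while Dio1 differed by -0.19 (adjusted p = 0.604). Esrra, which encodes the receptor XCT790 acts on, rose by 0.58 with T3 and by 0.57 with XCT790 (adjusted p = 0.00442 and 0.0148). The hepatocyte genes Ttr, Apoa1 and Ahsg had mean log2 intensities between 14.83 and 15.15 in controls, while the probe named for Alb was dim, at 5.97. Of 10 hepatocyte markers 7 passed the filter and 0 were called in any comparison. Of 8 Kupffer cell markers 7 passed, and 4 rose with T3, 4 with T3 in mice given XCT790 and 3 with both compounds. The median of these 7 was 7.36 to 8.00 in controls, 8.07 to 8.35 with T3, 6.99 to 7.35 with XCT790 and 7.50 to 8.10 with both. Alas2, a gene of heme synthesis and 1 of 2 tested red cell markers, fell in all 3 comparisons that add T3. Its mean was 11.52 in controls and 10.28 with T3, and 11.24 with XCT790 and 10.23 with both compounds. The other red cell marker, Hba-a1, did not fall. It measured 13.69 in controls, 13.89 with T3, 13.91 with XCT790 and 14.19 with both compounds. Sox9, 1 of 2 tested bile duct markers, fell with T3 from 8.48 to 7.50. The other, Krt7, did not, at 5.20 in controls and 5.28 with T3. None of 5 lymphocyte markers passed, and of 6 endothelial markers 1 rose, with T3 in mice given XCT790. In whole liver, fewer cells of a type and less RNA per cell cannot be told apart, and the part of these markers in the results below was not tested.

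Most of the genes for mitochondrial ribosomal proteins were well measured. Of the 72 that passed the filter, 70 were detected on all 12 arrays, and their median level was 10.05 on the log2 scale against 7.44 for all genes tested. The median SD between arrays of a group was 0.10 for them and 0.18 for all genes. The brightest probes were those of Mrps24 (12.65 on average), the counterpart of a bacterial protein at the entry of the messenger RNA channel, Mrps34 (12.13) and Mrpl38 (11.97). The dimmest were those of Mrpl51 (5.70), Mrpl57 (5.43) and Mrpl39 (5.38), all particular to mitochondria. Differences between probes also reflect how each probe hybridizes, so these levels do not rank the genes.

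Detection separated the genes cleanly. Just inside the filter, Mrpl39 was detected on 9 arrays and Mrpl57 on 11. Mrpl19, Mrpl32, Mrpl45 and Mrps14 did not pass, and each was detected on 0 arrays. The probes nearest to passing, those of Mrps14 and Mrpl45, had mean log2 values of 4.79 and 4.56. Nothing can be said here of the response of these 4 genes. The 72 genes lie on 17 chromosomes, with 10 on chromosome 11 and 8 on chromosome 17.

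**Figure D1:**
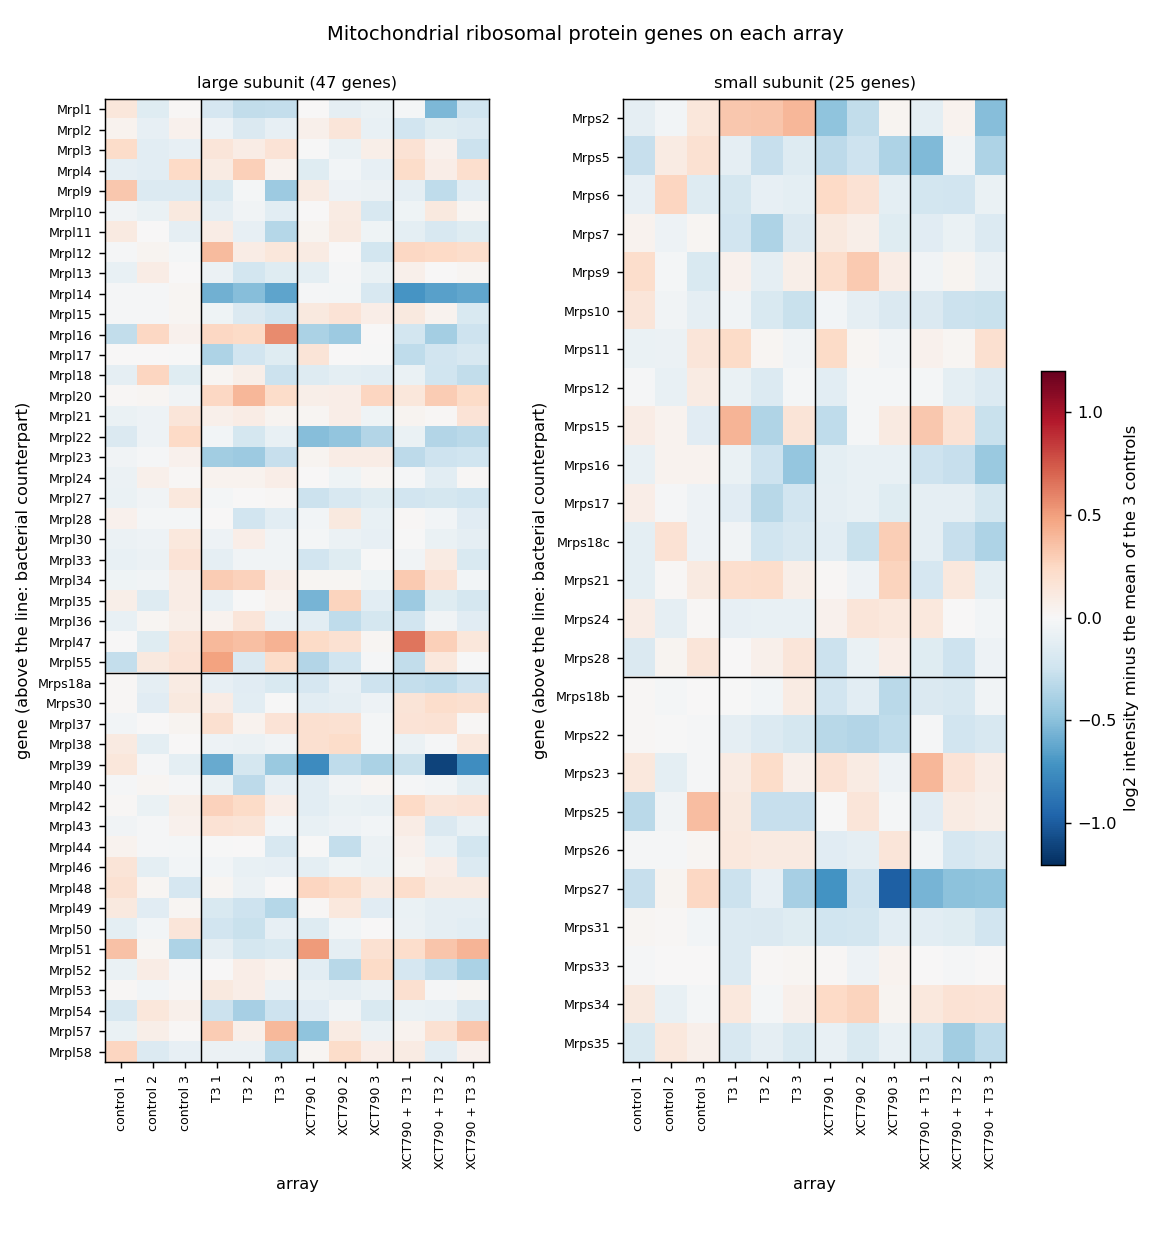
Log2 intensity of each of 72 mitochondrial ribosomal protein genes (rows) on each of 12 arrays (columns), as the difference from the mean of the 3 control arrays, red higher and blue lower. Mrps18a and Mrps30 are in the large subunit panel because their products belong to that subunit. Mrpl14 is the row in even blue on all 6 arrays with T3, Mrpl23 shows the same in a paler blue, and most other rows are pale throughout.

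T3 was compared with control to ask what the hormone does to these genes. With T3, 2 of 72 fell, Mrpl14 and Mrpl23, and 0 rose (limma, two-sided, Benjamini-Hochberg adjusted p under 0.05 over all genes). Over all genes tested 7.24% were called higher and 8.91% lower. At an unadjusted p under 0.05 the counts were 3 higher and 8 lower, against 13.5% and 16.4% of all genes. The median log2 fold change was -0.06 for the 72 genes and -0.01 for all genes, and the values ranged from -0.58 to 0.39. For 66 of the 72 (91.7%) the 95% interval of the change lay within 1.5-fold in either direction, which held for 58.0% of all genes. It also held for 93.8% of cytosolic ribosomal protein genes, and in the respiratory chain for 88.2% of complex I genes and 83.3% of those of complexes II to V.

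Mrpl14 encodes uL14m, a protein conserved from bacteria that lies on the face of the large subunit turned to the small one. Its log2 intensity was 11.46, 11.46 and 11.50 on the control arrays and 10.90, 10.96 and 10.84 on the T3 arrays. It was 11.46, 11.45 and 11.28 with XCT790, and 10.77, 10.82 and 10.85 with both compounds. All 6 arrays with T3 lay below all 6 without it, and the XCT790 arrays lay at or below the control arrays. The change with T3 was -0.58 (SE 0.09, adjusted p = 0.000872, limma), which is 0.671 times the control level. Mrpl14 was called under all 19 other settings and left-out arrays tried, with changes of -0.65 to -0.55. It is measured by 1 probe, so no other probe checks it.

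The promoter of Mrpl14 is shown because this gene carries the clearest response and starts close to another gene that fell as well, described further on. The window runs from 250 bases before to 50 bases after the first transcript start listed (RefSeq, GRCm38.p6, plus strand, chr17:45686099-45686398). The gene record begins further upstream, at 45685722, and a start there would lie outside this window. Capitals mark matches to the SP1 motif GGGCGG on either strand.
Mrpl14: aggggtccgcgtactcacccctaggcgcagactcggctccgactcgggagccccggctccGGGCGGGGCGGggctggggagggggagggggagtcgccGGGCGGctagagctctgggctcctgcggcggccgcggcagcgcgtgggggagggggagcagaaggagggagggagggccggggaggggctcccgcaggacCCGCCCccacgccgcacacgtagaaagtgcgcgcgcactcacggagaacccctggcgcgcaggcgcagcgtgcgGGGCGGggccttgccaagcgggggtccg
It is 78.0% G and C, against a median of 58.3% for 67 matched mitochondrial ribosomal protein genes and 56.3% for all protein-coding genes in the table. The window holds 5 matches to the SP1 motif and none to the NRF1, ETS, YY1 or ESRRA motifs spelled out further on.

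Mrpl23 encodes uL23m, a large subunit protein at the exit of the tunnel through which new chains leave. Its log2 intensity was 11.38, 11.41 and 11.47 in controls and 11.00, 10.98 and 11.14 with T3. It was 11.45, 11.51 and 11.51 with XCT790, and 11.11, 11.17 and 11.18 with both compounds. Again all 6 arrays with T3 lay below all 6 without it. The change with T3 was -0.38 (SE 0.09, adjusted p = 0.00909, limma), or 0.767 times the control level. When arrays were scaled to a common median instead of quantile-normalized, the adjusted p was 0.083.

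The Mrpl23 promoter (RefSeq, GRCm38.p6, plus strand, chr7:142532782-142533081) is set out in the same way, for comparison with that of Mrpl14. This gene record too begins upstream of the window, at 142532467. Capitals again mark GGGCGG.
Mrpl23: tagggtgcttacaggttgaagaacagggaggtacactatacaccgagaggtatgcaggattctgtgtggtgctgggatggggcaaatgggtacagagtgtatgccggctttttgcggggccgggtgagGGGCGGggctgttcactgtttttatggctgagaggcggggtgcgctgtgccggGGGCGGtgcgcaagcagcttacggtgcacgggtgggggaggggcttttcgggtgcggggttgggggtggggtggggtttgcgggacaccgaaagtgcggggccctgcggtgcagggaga
It holds 2 matches to the SP1 motif and none to the other motifs.

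Other genes were not called, though some of their values were as large as that of Mrpl23, with a larger SE. Mrpl39, a protein particular to mitochondria, differed by -0.42 (SE 0.20, adjusted p = 0.176). Among positive values, Mrpl47, the counterpart of a tunnel-exit protein, differed by 0.39 (SE 0.13, adjusted p = 0.066). It measured 8.92, 8.77 and 9.06 in controls and 9.31, 9.28 and 9.33 with T3, without overlap, and was called higher in 5 of the 19 other settings and left-out arrays. Mrpl16 (0.35, adjusted p = 0.168) and Mrps2 (0.35, adjusted p = 0.158) were next. Arrays of both groups did not overlap in 7 genes that were higher and 13 that were lower with T3, against 15.7% and 19.1% of all genes.

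T3 was also given on top of XCT790, which asks whether the hormone acts on these genes when ESRRA is targeted. The same genes, Mrpl14 and Mrpl23, fell, and 0 of 72 rose (limma), where 7.63% of all genes were called higher and 7.56% lower. The median change was -0.02, against 0.00 for all genes, and without XCT790 array 3 the median was also -0.02 and the same number of genes was called. At an unadjusted p under 0.05, 5 genes were higher and 4 lower, against 14.1% and 14.6% of all genes. The 95% interval lay within 1.5-fold for 68 of 72. Groups did not overlap in 7 genes that were higher and 10 that were lower, against 16.2% and 16.6% of all genes.

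Mrpl14 differed by -0.58 between mice given both compounds and mice given XCT790 (SE 0.09, adjusted p = 0.000935, limma). Without XCT790 array 3, the array that stood apart, the change was -0.64 (adjusted p = 0.0012). Mrpl23 differed by -0.33 (SE 0.09, adjusted p = 0.0205), and by -0.33 without that array (adjusted p = 0.0489). The Mrpl23 call was lost without XCT790 array 2, or without array 1 or 2 of the group given both compounds (adjusted p = 0.062, 0.0637 and 0.0513). Mrpl17, a tunnel-exit protein, differed by -0.29 (SE 0.09, adjusted p = 0.0519), and by -0.32 without XCT790 array 3 (adjusted p = 0.0666). Mrpl57 (0.34, adjusted p = 0.157), Mrpl42 (0.28, adjusted p = 0.0517) and Mrps30 (0.28, adjusted p = 0.0701) had the largest positive values. The last is named for the small subunit, but its product belongs to the large one. Without XCT790 array 3 these values were 0.37, 0.29 and 0.30 (adjusted p = 0.18, 0.0897 and 0.103). Of the 19 other settings, Mrpl17 was called lower in 5, Mrpl42 higher in 4 and Mrps30 higher in 3.

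The 2 comparisons of T3 share no array, so their values can be set against each other. Across the 72 genes they correlated with Pearson's r = 0.60 and Spearman's rho = 0.53, and across all 9747 genes with 0.69 and 0.54. Genes are not independent replicates, and these values describe the arrays only. Without the 4 genes called in any comparison, the 68 others correlated at 0.48. In 5 genes the groups did not overlap in the same direction in both comparisons. These were Mrpl14, Mrpl17 and Mrpl23, which were lower with T3, and Mrpl12 and Mrpl42, which were higher. They are 6.94% of the 72, where 16.4% of all genes met the same description.

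Mrpl12, the stalk protein that recruits translation factors, is shown as a gene that was higher with T3 in both comparisons. Its changes were smaller than the largest positive values, 0.39 with T3 and 0.34 with T3 in mice given XCT790. Its log2 intensity was 11.72, 11.76 and 11.71 in controls and 12.11, 11.82 and 11.87 with T3. It was 11.83, 11.73 and 11.51 with XCT790, and 11.98, 11.97 and 11.94 with both compounds. Both groups given T3 lay above their comparison groups, but the changes of 0.20 and 0.27 did not pass the test (adjusted p = 0.236 and 0.12).

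**Figure D2:**
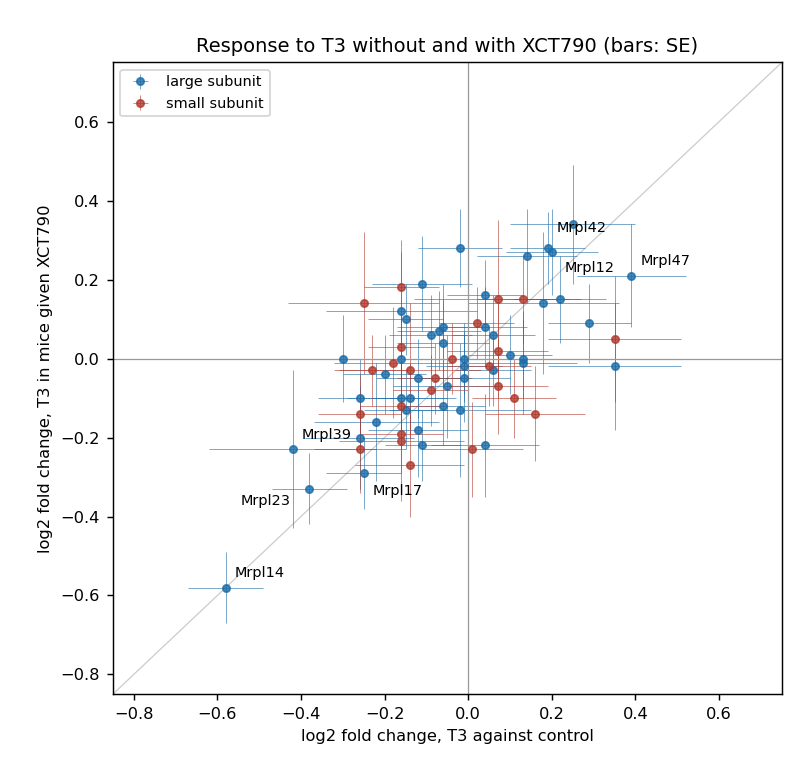
Log2 fold change of each of 72 genes with T3 against control (x axis) and with T3 in mice given XCT790 (y axis), with bars of 1 SE, blue for the large and red for the small subunit. The diagonal marks equal changes. Mrpl14 lies apart at -0.58 on both axes.

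Whether the response to T3 differed with XCT790 was tested as an interaction. It was called in 0 of 72 genes (limma), against 0.185% of all genes higher and 0.277% lower. At an unadjusted p under 0.05 there were 2 higher and 0 lower, against 6.69% and 5.43%. For Mrpl14 the interaction was -0.01, with a 95% interval from -0.28 to 0.26, and for Mrpl23 it was 0.05, from -0.22 to 0.31. Differences beyond 1.5-fold between both T3 responses lie outside the 95% interval in 55 of 72 genes. The median interaction was 0.04, and 0.02 without XCT790 array 3. Without that array 0 of the 72 were called again, where 9 of 9656 genes were called higher and 16 lower.

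XCT790 alone was compared with control to ask what targeting ESRRA does to these genes. None of the 72 was called (limma), where 2.29% of all genes were called higher and 2.15% lower. At an unadjusted p under 0.05, 0 were higher and 7 lower, against 8.78% and 9.15% of all genes. The median change was -0.06, against -0.01 for all genes, and 50 of the 72 values were below 0. The 95% interval lay within 1.5-fold for 64 of 72 (88.9%), which held for 66.9% of all genes. It held for 97.9% of cytosolic ribosomal protein genes, 100% of complex I genes and 94.4% of those of complexes II to V. Groups did not overlap in 2 genes that were higher and 11 that were lower, against 10.5% and 11.4% of all genes. Without XCT790 array 3 the count of called genes was also 0 and the median was -0.07.

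The genes with the lowest values were of different classes. Mrps27 encodes an RNA-binding protein of the small subunit particular to mitochondria. It measured 7.25, 7.56 and 7.78 in controls and 6.81, 7.28 and 6.55 with XCT790, a difference of -0.65 (SE 0.18, adjusted p = 0.065). The groups overlapped through XCT790 array 2, and Mrps27 was called when that array or control array 1 was left out. Without XCT790 array 3, its lowest array, the difference was -0.48 (adjusted p = 0.157), and leaving out 1 array gave adjusted p of up to 0.201. Mrpl22, a protein lining the exit tunnel, measured 9.43, 9.54 and 9.84 in controls and 9.09, 9.13 and 9.25 with XCT790, a difference of -0.44 (SE 0.12, adjusted p = 0.0644). Mrpl39 differed by -0.48 (SE 0.20, adjusted p = 0.221). Without array 3 the differences of Mrpl22 and Mrpl39 were -0.49 and -0.52 (adjusted p = 0.0761 and 0.228). The highest values were those of Mrps9 (0.21), Mrpl51 (0.20) and Mrpl48 (0.20), with adjusted p of 0.388, 0.639 and 0.375, and leaving out 1 array took them as low as 0.11, 0.01 and 0.10. With no background correction, with the deposited matrix or with the stricter detection filter, 3 genes fell: Mrps27, Mrpl22 and Mrps22, a small subunit protein particular to mitochondria. Over all genes these settings called 304 of 9747, 304 of 9747 and 265 of 7570 lower.

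**Figure D3:**
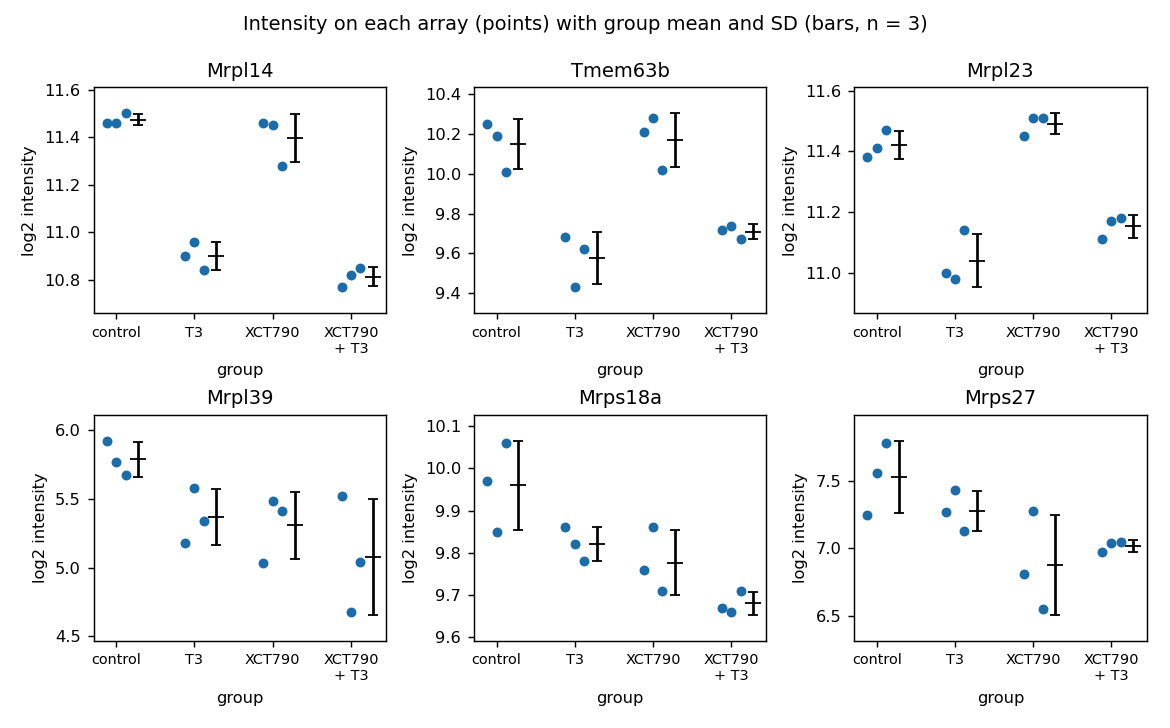
Log2 intensity on each array (points, 3 per group) with the group mean and SD (bars) for Mrpl14, Tmem63b, Mrpl23, Mrpl39, Mrps18a and Mrps27, each panel with its own axis that does not start at 0. In the panels of Mrpl14, Tmem63b and Mrpl23 both groups given T3 lie below both groups without it, and in that of Mrps27 an XCT790 array lies among the control arrays.

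XCT790 was compared between mice given T3 in the same way. Again 0 of 72 genes were called (limma), in a comparison in which 0.0718% of all genes were called higher and 0.0205% lower. At an unadjusted p under 0.05, 1 gene was higher and 5 lower, against 6.37% of all genes in each direction. The median was -0.01, against 0.01 for all genes. Groups did not overlap in 8 genes that were higher and 12 that were lower, against 10.4% and 8.85% of all genes. Mrpl16, which lies by the site where transfer RNAs enter, measured 9.19, 9.17 and 9.51 with T3 and 8.72, 8.53 and 8.69 with both compounds. The groups did not overlap, and the difference was -0.65 (SE 0.16, adjusted p = 0.163). Mrps2 measured 7.94, 7.95 and 8.01 with T3 and 7.50, 7.66 and 7.10 with both compounds, a difference of -0.55 (SE 0.16, adjusted p = 0.203). Mrpl52 followed at -0.33, and the largest positive values were those of Mrpl51 (0.48), Mrps30 (0.20) and Mrpl54 (0.18), with adjusted p of 0.297, 0.417 and 0.518. The comparisons of XCT790 without and with T3 share no array. Their values correlated at r = 0.54 (rho = 0.50) across the 72 genes and at 0.22 across all genes.

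Mice given both compounds were compared with control as well. Of the 72 genes 4 fell (Mrpl14, Mrpl23, Mrpl39 and Mrps18a) and 0 rose (limma), against 9.77% of all genes lower and 8.97% higher. At an unadjusted p under 0.05, 12 were lower and 2 higher, against 16.8% and 15.3%. The median was -0.07 for the 72 genes and -0.01 for all genes. Groups did not overlap in 5 genes that were higher and 18 that were lower, against 16.9% and 18.6% of all genes. These controls also serve the comparisons of T3 and of XCT790 with control, so the calls are not independent of those.

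Mrpl14 differed by -0.66 (SE 0.09, adjusted p = 0.000274) and Mrpl23 by -0.27 (SE 0.09, adjusted p = 0.0474). Mrps18a, whose product lies in the large subunit despite its name, measured 9.97, 9.85 and 10.06 in controls and 9.67, 9.66 and 9.71 with both compounds, without overlap. Its difference was -0.28 (SE 0.09, adjusted p = 0.0461). Mrpl39 measured 5.92, 5.77 and 5.67 in controls and 5.52, 4.68 and 5.04 with both compounds, again without overlap, a difference of -0.71 (SE 0.20, adjusted p = 0.0265). Its probe was detected on 3 of 3 control arrays, 3 of 3 with T3, 2 of 3 with XCT790 and 1 of 3 with both compounds, and the background offset understates changes at such levels.

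These calls, apart from that of Mrpl14, depended on which arrays were included. Of 19 other settings and left-out arrays, Mrpl14 was called in 19, Mrpl39 in 15, Mrps18a in 8 and Mrpl23 in 7. Leaving out 1 array gave adjusted p of up to 0.096 for Mrpl39, 0.142 for Mrps18a and 0.128 for Mrpl23. Mrps27 differed by -0.51 (adjusted p = 0.0684), and the highest values were those of Mrpl47 (0.35), Mrpl51 (0.32) and Mrpl12 (0.23), with adjusted p of 0.0834, 0.253 and 0.163. Mrpl47 was called higher with both compounds in 3 of the 19 settings.

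The windows of Mrpl39 and Mrps18a are printed because, unlike those of Mrpl14 and Mrpl23, they hold motifs often found in front of mitochondrial genes. In Mrpl39 (RefSeq, GRCm38.p6, minus strand, chr16:84735195-84735494) capitals mark the NRF1 core GCATGCGC and its match on the other strand, which overlap. In Mrps18a (plus strand, chr17:46110754-46111053) they mark the ETS motif CCGGAAG and the YY1 motif AAGATGGCG.
Mrpl39: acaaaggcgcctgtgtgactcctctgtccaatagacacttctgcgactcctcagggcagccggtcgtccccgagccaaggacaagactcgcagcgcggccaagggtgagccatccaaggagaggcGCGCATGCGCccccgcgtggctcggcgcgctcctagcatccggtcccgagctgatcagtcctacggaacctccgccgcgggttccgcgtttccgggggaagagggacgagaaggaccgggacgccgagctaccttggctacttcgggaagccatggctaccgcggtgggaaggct
Mrps18a: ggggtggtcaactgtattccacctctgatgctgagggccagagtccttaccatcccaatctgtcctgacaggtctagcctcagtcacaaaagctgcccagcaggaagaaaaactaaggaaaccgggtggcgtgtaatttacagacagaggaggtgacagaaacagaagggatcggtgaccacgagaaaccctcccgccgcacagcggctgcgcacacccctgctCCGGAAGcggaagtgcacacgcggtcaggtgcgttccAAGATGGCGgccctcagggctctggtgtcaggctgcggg
Both genes fell with both compounds, and the windows share none of the motifs searched.

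The 4 classes of mitochondrial ribosomal proteins had similar medians with T3 and differed more with both compounds. With T3 the median was -0.04 for 28 large subunit proteins with a bacterial counterpart and -0.06 for 19 particular to mitochondria. It was -0.09 for 15 small subunit proteins with a bacterial counterpart and -0.09 for 10 particular to mitochondria. With both compounds the medians were -0.06, -0.02, -0.14 and -0.13 in the same order, lower in both small subunit classes. Groups then did not overlap in 9 of 25 small subunit genes that were lower and 1 that was higher. In the large subunit these were 9 and 4 of 47, against 18.6% and 16.9% of all genes, and the difference between subunits was not tested. With XCT790, 4 of the 10 small subunit proteins particular to mitochondria were lower at an unadjusted p under 0.05, and 3 of the 62 in the other classes, where 9.15% of all genes were. With T3 the same counts were 0 of 10 and 8 of 62, with T3 in mice given XCT790 0 and 4, with XCT790 in mice given T3 1 and 4, and with both compounds 2 and 10. All 4 genes called in any comparison encode large subunit proteins, 2 classed as having a bacterial counterpart in that subunit and 2 not. Mrps18a is among the latter, although it is related to a bacterial small subunit protein.

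**Figure D4:**
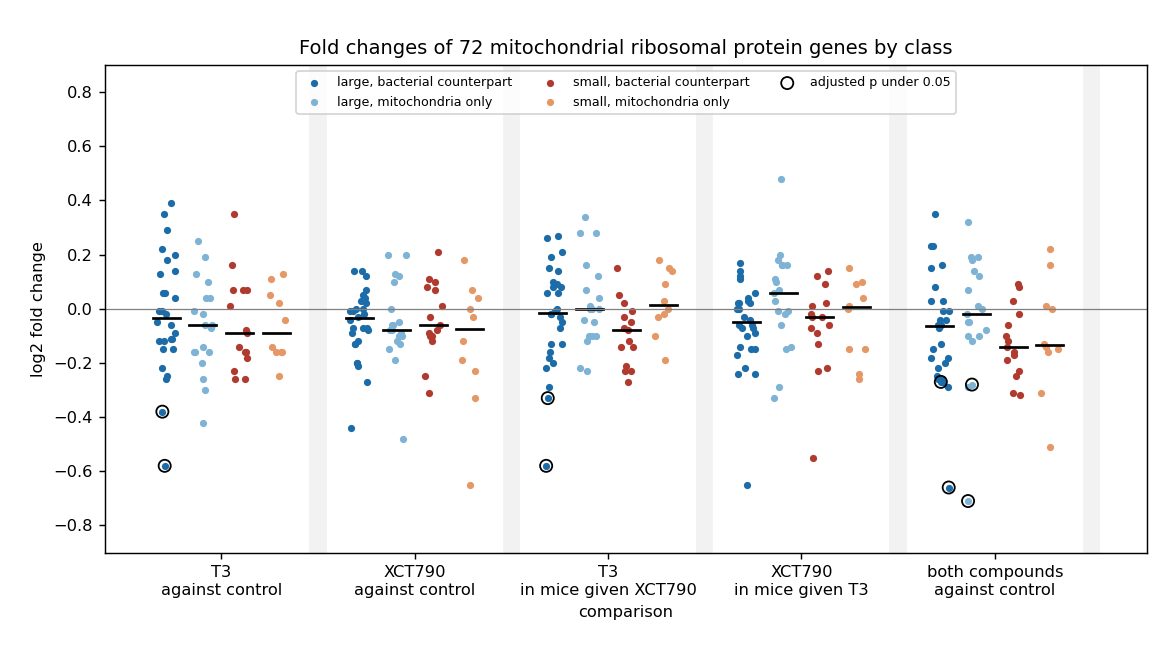
Log2 fold change of each of 72 genes (points) in 5 comparisons, by subunit and by whether the protein has a bacterial counterpart, with class medians as black lines and rings around genes with an adjusted p under 0.05. All ringed points are large subunit genes below 0, and every class median lies between -0.14 and 0.06.

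Other proteins of mitochondrial translation changed in small numbers too, in both directions. The lists cover what the ribosome needs around it, and their counts stand against the shares of all genes called, which were 7.24% higher and 8.91% lower with T3, 2.29% and 2.15% with XCT790, 7.63% and 7.56% with T3 in mice given XCT790, and 8.97% and 9.77% with both compounds. Of 4 tested ribosomal proteins that carry other names, such as Dap3 and Chchd1, 0 were called in any comparison. Of 14 tested translation factors, 1 was called: Mtif2, which brings the initiator transfer RNA, rose by 0.39 with T3 in mice given XCT790 (SE 0.12, adjusted p = 0.049), which is 7.14% of the list. It measured 6.94, 7.21 and 7.04 with XCT790 and 7.46, 7.37 and 7.53 with both compounds, and the call was lost in most settings in which 1 array was left out (adjusted p up to 0.158, and 0.105 without XCT790 array 3).

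The enzymes that charge mitochondrial transfer RNAs numbered 17 tested. Of these 1 fell with T3, 1 fell with XCT790, 1 rose with T3 in mice given XCT790 and 2 fell with both compounds. Nars2, which attaches asparagine, measured 6.43, 6.72 and 6.13 in controls and 5.67, 5.54 and 5.79 with T3. It was 5.74, 6.00 and 6.27 with XCT790, and 5.70, 5.43 and 5.33 with both compounds. Nars2 fell by 0.76 with T3 (SE 0.17, adjusted p = 0.00927) and by 0.94 with both compounds (SE 0.17, adjusted p = 0.00259). Qrsl1, part of the complex that makes glutaminyl transfer RNA, rose by 0.53 with T3 in mice given XCT790 (adjusted p = 0.00979). Without XCT790 array 3 the change of Qrsl1 was 0.44 (adjusted p = 0.0343), and under median scaling its adjusted p was 0.222. Aars2, which attaches alanine, fell by 0.45 with XCT790 (adjusted p = 0.0497) and by 0.44 with both compounds (adjusted p = 0.0218), and of the 19 other settings and left-out arrays it was called in 4 and 13. With XCT790 the adjusted p of Aars2 was 0.0933 without XCT790 array 3, up to 0.187 without other arrays, and 0.107 with no background correction, where the change was -0.23.

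Of 18 tested genes for ribosome assembly and RNA modification, 1 was called. Mterf3, a protein needed for assembly of the large subunit, rose by 0.38 with T3 (SE 0.11, adjusted p = 0.0275). Without control array 1 or 3 or T3 array 2 its adjusted p was 0.0805, 0.0765 or 0.109, and with median scaling 0.337. Among 12 tested genes for upkeep of mitochondrial DNA and RNA 2 fell with T3, 1 with T3 in mice given XCT790 and 2 with both compounds. Polg2, a subunit of the mitochondrial DNA polymerase, fell by 0.51 with T3 (adjusted p = 0.0156) and by 0.40 with both compounds (adjusted p = 0.0433). The T3 call of Polg2 was lost with median scaling (adjusted p = 0.0953), with the mean over its probes (0.0603) and without T3 array 3 (0.066), and the other call without most single arrays (up to 0.153). Hsd17b10, a dehydrogenase that is also a subunit of mitochondrial ribonuclease P, measured 12.76, 12.60 and 12.86 in controls and 12.21, 12.28 and 12.28 with T3. It was 12.91, 12.97 and 12.94 with XCT790, and 12.40, 12.44 and 12.31 with both compounds. Both groups given T3 lay below both without it, and Hsd17b10 fell by 0.48 with T3 (adjusted p = 0.00386) and by 0.55 with T3 in mice given XCT790 (adjusted p = 0.00191), and by 0.56 in the latter without XCT790 array 3 (adjusted p = 0.00651).

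The respiratory chain, part of which these ribosomes make, had positive medians with T3. Of 34 tested genes with a complex I symbol 5 rose (14.7%) and 0 fell with T3, with a median of 0.14. That list was drawn by symbol alone and takes in Ndufa4 and the pseudogene symbol Ndufs5-ps, so not every entry need be a complex I subunit. Of 36 tested genes of complexes II to V 3 rose (8.33%) and 0 fell, with a median of 0.17, where 7.24% of all genes rose. With T3 in mice given XCT790 the counts were 4 (11.8%) and 3 (8.33%) risen and 0 fallen, where 7.63% of all genes rose, with medians of 0.12 and 0.17. Without XCT790 array 3 these medians were 0.11 and 0.14. Examples are Ndufa5 of complex I, which rose by 0.49 with T3 (SE 0.09, adjusted p = 0.00349), and the electron carrier Cycs, which rose by 0.49 (SE 0.09, adjusted p = 0.0034). For cytosolic ribosomal proteins 1 of 48, Rpl22, fell with T3, and the median was 0.00. The difference between these lists and the mitochondrial ribosomal proteins was not tested. With median scaling the medians of complex I and of complexes II to V were 0.06 and 0.08 with T3. With T3 in mice given XCT790 they turned to -0.11 and -0.04, where the median of all genes was -0.17, and 0 complex I genes were called in either comparison. Cycs then had adjusted p of 0.182 and 0.264.

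**Figure D5:**
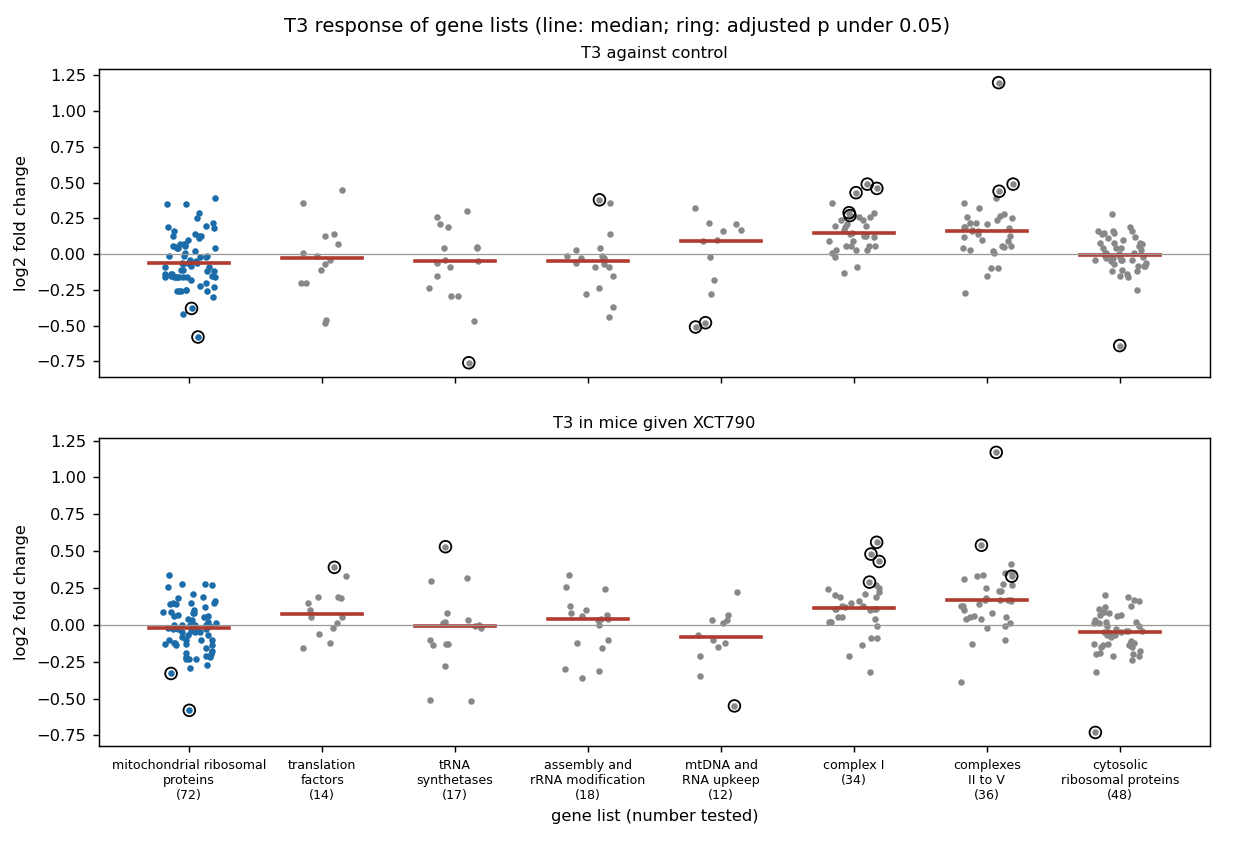
Log2 fold change with T3 against control (top) and with T3 in mice given XCT790 (bottom) for genes of 8 lists, with the list median as a red line and rings around genes with an adjusted p under 0.05. The mitochondrial ribosomal proteins (blue) have medians of -0.06 and -0.02, and complex I and complexes II to V have medians of 0.12 to 0.17.

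The promoters of mitochondrial ribosomal protein genes shared features that do not depend on the response. RefSeq windows were found for 67 of the 76 genes and compared with 17492 protein-coding genes, with 1 window per gene and both strands searched. The ETS motif CCGGAAG, bound by GABPA among others, was in 25 of 67 windows (37.3%) and in 11.9% of all. The YY1 motif AAGATGGCG was in 8 (11.9%, against 1.94%), and the NRF1 core GCATGCGC in 8 (11.9%, against 3.61%). The SP1 motif GGGCGG was in 33 (49.3%, against 46.3%). The ESRRA motif AAGGTCA was in 4 (5.97%, against 4.08%), those of Mrpl12, Mrpl36, Mrps15 and Mrps21. With XCT790 0 of all 72 tested genes were called, so the lack of a call in these 4 says nothing about the motif. A match describes letters, not binding.

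Many of these genes start head to head with another gene. Of the 67 genes, 21 (31.3%) had a gene on the opposite strand starting within 500 bases upstream, against 7.09% of all genes. Mrpl46 and Mrps11, 1 protein of each subunit, start 42 bases apart. Mrpl43 shares such a start with Twnk, the mitochondrial DNA helicase, Mrps12 with Sars2, a mitochondrial transfer RNA synthetase, and Mrpl47 with Ndufb5 of complex I. Of the distinct pairs 13 had both genes tested.

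By the first start listed, Mrpl14 starts 131 bases from Tmem63b, an ion channel gene read in the other direction. The gene record of Mrpl14 begins further upstream, so this distance holds only for the start used. Tmem63b was chosen after its values were seen. Its log2 intensity was 10.25, 10.19 and 10.01 in controls and 9.68, 9.43 and 9.62 with T3. It was 10.21, 10.28 and 10.02 with XCT790, and 9.72, 9.74 and 9.67 with both compounds. All 6 arrays with T3 lay below all 6 without it, as for Mrpl14. Tmem63b differed by -0.57 with T3 (SE 0.11, adjusted p = 0.00362, limma), beside -0.58 for Mrpl14, and by -0.46 with T3 in mice given XCT790 (SE 0.11, adjusted p = 0.0139), beside -0.58. The last call was lost without XCT790 array 2 (adjusted p = 0.0589), and without array 3 the change was -0.53 (adjusted p = 0.011).

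Of the 4 mitochondrial ribosomal protein genes called in any comparison, only Mrpl14 has such a partner by the first start listed. No other pair could therefore share a call. Gga3, which starts 224 bases from Mrps7, rose by 0.45 with T3 (adjusted p = 0.00871), while Mrps7 differed by -0.26. Ptcd2, 108 bases from Mrps27, rose by 0.46 with T3 in mice given XCT790 (adjusted p = 0.032), while Mrps27 differed by 0.14, and Mitd1, 66 bases from Mrpl30, rose by 0.38 in that comparison (adjusted p = 0.0422), while Mrpl30 differed by 0.00. With T3 both genes of a pair had the same sign in 5 of 13 pairs, and with T3 in mice given XCT790 in 9 of 13. The count of 9 takes a change of 0.00 as not above 0. It includes Mrpl37 (0.00) with Cyb5rl (-0.25) and Mrpl40 (0.00) with Hira (0.00).

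Where a gene had more than 1 probe, the dimmer probes agreed only in part. There were 37 further kept probes in 26 of the genes. They had the sign of the brightest probe in 30 of 37 cases for T3 and in 27 for T3 in mice given XCT790. The corresponding numbers were 26 for XCT790, 20 for XCT790 in mice given T3 and 28 for both compounds. In a fit over all kept probes, dimmer probes of 3 genes were called where the brightest was not. For Mrps26 a probe at a mean of 6.85 differed by -0.68 with T3 in mice given XCT790 (adjusted p = 0.0104), while the brightest, at 9.44, differed by -0.10. For Mrpl51 a probe at 5.40 differed by 0.58 in that comparison (adjusted p = 0.0396), and by 0.60 with both compounds (adjusted p = 0.0293). For Mrpl49 probes at 5.76 and 5.52 differed by -0.61 and -0.72 with both compounds (adjusted p = 0.0149 and 0.0186), while the brightest, at 10.71, differed by -0.10. The probe at 5.76 was also called with XCT790 alone (-0.60, adjusted p = 0.0475), where the brightest differed by 0.00. The 4 genes called in the main comparisons have 1 probe each.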

How the data were processed

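Biotin-labelled cRNA made from liver RNA was measured on Illumina bead arrays, per the labels' protocols. Per the file headers, the authors deposited non-normalized probe intensity values and a detection p-value per probe, along with a matrix of normalized intensity values. The submitters' processing notes name Partek 6.6 without its role. Intensities were corrected with limma's normexp (background from the deposited detection p-values, offset 16), put on the log2 scale and quantile-normalized (limma 3.58.1, R 4.3.3). Detection p had to be below 0.05 on 3 or more arrays, which kept 17218 of 45281 probes, named through the platform annotation. The brightest probe stood for each of 9747 genes.

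One lmFit model of group means covered all 12 arrays, and 6 contrasts were tested with eBayes, two-sided, with Benjamini-Hochberg adjustment over all genes and a threshold of 0.05. The procedure was tested on simulated data. Log2 fold changes understate changes of dim genes because of the offset. The precision is limited by 3 arrays per group.

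The genes and lists were chosen with earlier results of these data known. Named genes are those called, the 3 largest values in each direction of each comparison of 2 groups, the 3 brightest and dimmest, those next to the filter, and up to 3 called genes per list. Promoters came from RefSeq (GRCm38.p6), the first start listed per gene. Alternatives are listed in the closing section. Cross-checks of Tmem63b, the pathway genes and the compared families under them were added after seeing the data.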

Additional observations from a re-analysis of the deposited data

How the results depend on the processing

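Background correction was left out, arrays were scaled to a common median, and the deposited matrix was used instead. The filter was dropped or made stricter (every array of at least 1 group at a detection p under 0.01), probes were averaged, the replicate number was fitted as a block, and each array was left out. Mrpl14 fell in all of them in the 3 comparisons that add T3. For T3 against control the count of called genes was 6 with no background correction (2 higher, 4 lower) and 1 with median scaling (lower). It was 5 with the deposited matrix or the stricter filter (2 higher, 3 lower in each). Over all genes these settings called 818 higher and 1023 lower, 389 and 553, 820 and 1023, and 797 and 996. The genes tested were 9747, or 7570 with the stricter filter. For XCT790 against control the count of called genes was 3, 1, 3 and 3, and 1 with no filter, all lower. Over all genes it was 309 higher and 304 lower, 98 and 137, 307 and 304, and 283 and 265. With no filter it was 199 and 178 of 19057. For T3 in mice given XCT790 the count was 5 (2 higher), 4 (0 higher), 5 (2 higher) and 5 (2 higher), and 4 with no filter (1 higher). Over all genes it was 834 higher and 840 lower, 266 and 988, 834 and 842, 820 and 805, and 681 and 643. For both compounds against control the count was 9 with no background correction (1 higher) and 18 with median scaling (0 higher, 18 lower). It was 9 with the deposited matrix (1 higher) and 2 with the replicate block (0 higher). Over all genes the counts were 967 higher and 1076 lower, 288 and 2089, 966 and 1075, and 819 and 890 in that order.

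Median scaling moved the median of the 72 genes to -0.13 for T3 against control, -0.12 for XCT790 against control, -0.25 for T3 in mice given XCT790, -0.26 for XCT790 in mice given T3, -0.39 for both compounds and -0.13 for the interaction, and the median of all genes to -0.04, -0.09, -0.17, -0.22, -0.27 and -0.13. Relative to all genes the shift was -0.09, -0.03, -0.08, -0.04, -0.13 and 0.00. It also moved calls over all genes for T3 in mice given XCT790 from 744 higher and 737 lower to 266 and 988, and for both compounds from 874 and 952 to 288 and 2089. Under it Mrps30 and Mrpl54 turned negative for XCT790 in mice given T3 (adjusted p = 0.891 and 0.839), as did Mrpl12 for both compounds (adjusted p = 0.803). The cause was not tested.

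Leaving out each array gave 2 to 3 called genes for T3 against control, 0 to 1 for XCT790 against control, 1 to 2 for T3 in mice given XCT790, 0 to 0 for XCT790 in mice given T3, 1 to 4 for both compounds and 0 to 0 for the interaction. Medians were -0.09 to -0.05, -0.07 to -0.03, -0.04 to -0.01, -0.03 to 0.00, -0.11 to -0.06 and -0.01 to 0.05 in that order. Over all 9624 to 9701 genes tested, T3 against control called 522 to 728 higher and 620 to 888 lower. XCT790 against control called 102 to 219 and 84 to 210, and T3 in mice given XCT790 503 to 744 and 468 to 714. XCT790 in mice given T3 called 1 to 8 and 0 to 2. Both compounds called 612 to 901 and 630 to 979, and the interaction 5 to 47 and 11 to 52. Same-numbered arrays of different groups showed no strong shared deviation (18 correlations from -0.13 to 0.13, 2 over 0.1). Weak correlations cannot show that the samples were unpaired, and the numbers in the labels come without a stated meaning. With the replicate number as a block the counts were 2, 0, 2, 0, 2 and 0. The calls of Mrpl23 (adjusted p = 0.0583) and Mrps18a (adjusted p = 0.072) with both compounds were lost. Over all genes the block gave 688 higher and 841 lower, 185 and 166, 710 and 681, 3 and 0, 819 and 890, and 13 and 12. Signal over background limits Mrpl39, Mrpl51 and Mrpl57.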
